A study of Mus musculus with 12 samples.

Results

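Livers after a high-fat diet (HFD) were compared with livers after a normal diet (ND), which used 6 of the 12 sequenced livers, those of HFD mice 12, 15 and 18 and of ND mice 2, 3 and 4, taken by their group labels. All 6 were male C57BL/6J mice of 21 weeks, kept singly, fed their diet for 16 weeks and fasted for 12 h before the liver was removed. The ND gave 12% and the HFD 45% of its energy as fat, and neither held the chrysanthemum leaf extract (CLE) or luteolin (LU) that the other 6 mice received with the HFD. Each mouse was 1 replicate (n = 3 per group), the authors had picked the mice as representative of larger groups, and the data cover 1 inbred strain, 1 sex and 1 time point.

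A fatty diet reaches the liver as fatty acids and cholesterol. Hepatocytes take up fatty acids, store them as triglyceride in lipid droplets, oxidize them or export them in lipoproteins, and they balance cholesterol through the transcription factor SREBP2, which turns on cholesterol synthesis when sterols are scarce, and the receptor LXR, which turns on sterol export when they are plentiful. The same cells carry the enzymes that clear drugs, steroids and bile acids, and in mice many of those enzymes differ between the sexes because growth hormone is released in pulses in males.

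Expression was given in FPKM (fragments assigned to a transcript, scaled to its length and to the library size), summed over all transcripts that carry a gene name, and the 11566 genes that averaged 0.5 FPKM or more across the 12 livers were tested with limma on log2(FPKM + 1). All fold changes below are HFD minus ND on that scale, which understates the change of genes near 0, and all adjusted p-values are from limma with Benjamini-Hochberg adjustment over all genes tested. Near the filter, 240 tested genes had a mean of 0.5 to 0.6 FPKM and 280 genes left out had a mean of 0.4 to 0.5. At an adjusted p of 0.05, 1400 genes passed, 1156 higher in HFD livers (9.99% of the genes tested) and 244 lower (2.11%), and the first principal component (60.6% of the variance) set the 3 HFD livers apart from the 3 ND livers. The balance of directions depended on the scaling of the libraries. With median-of-ratios scaling, which sets the typical gene equal between livers, 620 genes were higher (5.36%) and 504 lower (4.36%), and the median log2 fold change of all genes moved from 0.11 to -0.01. The genes that passed in the same direction with both scalings were 620 higher and 243 lower. The total also depended on single mice, being 656 without ND 2, 845 without ND 4, 771 without HFD 12 and 732 without HFD 18. A score of 21 clock genes differed between the diets, at -3.97, -1.17 and -4.29 in the ND livers and -0.04, -1.56 and 1.04 in the HFD livers, and with that score as a covariate 270 genes passed. The part of the clock in the differences below was not tested, and list counts with this covariate are given beside the others. Transcripts assembled without a reference held 72.7% (ND 4) to 85.1% (HFD 12) of all FPKM, which summed to 2041662 in ND 4 and 4181801 in HFD 12 as the lowest and highest livers, and 661 genes passed when known transcripts alone were summed. An FPKM value below is therefore a level relative to a total that differed between livers.

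The largest changes were in a small set of genes, and the plot of 14 of them shows no overlap between the diets for any. Genes named for the size of their change were picked among those without overlap, so that trait came with the choice. Of the 1400 genes that passed, 1394 had no overlap, so its absence here and below adds little to a pass. Cyp2b9, a female-biased cytochrome P450 (chr7:26173411-26210661), was at 0.105, 0.415 and 1.14 FPKM in the ND livers and at 71, 113 and 61.2 FPKM in the HFD livers (log2 fold change 5.74 ± 0.62 SE, adjusted p = 0.00012). Every HFD liver was above every ND liver, and the ratio of the group means was 148. Cfd, which encodes the serine protease adipsin (chr10:79890853-79892655), was at 0.889, 1.65 and 1.54 FPKM against 83.1, 58.9 and 104 (5.11 ± 0.59, adjusted p = 0.00019). In the other direction, the steroid dehydrogenase gene Hsd3b5 (chr3:98618634-98630252) was at 45, 97.9 and 39.1 FPKM in ND livers and at 0.6, 0.169 and 1.0 FPKM in HFD livers (-5.19 ± 0.83, adjusted p = 0.0019). Hsd3b5 has close copies next to it among which reads can be divided, and it did not pass when known transcripts alone were summed (adjusted p = 0.19). Coordinates here and below are those of GENCODE M21 on GRCm38.

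**Figure D1:**
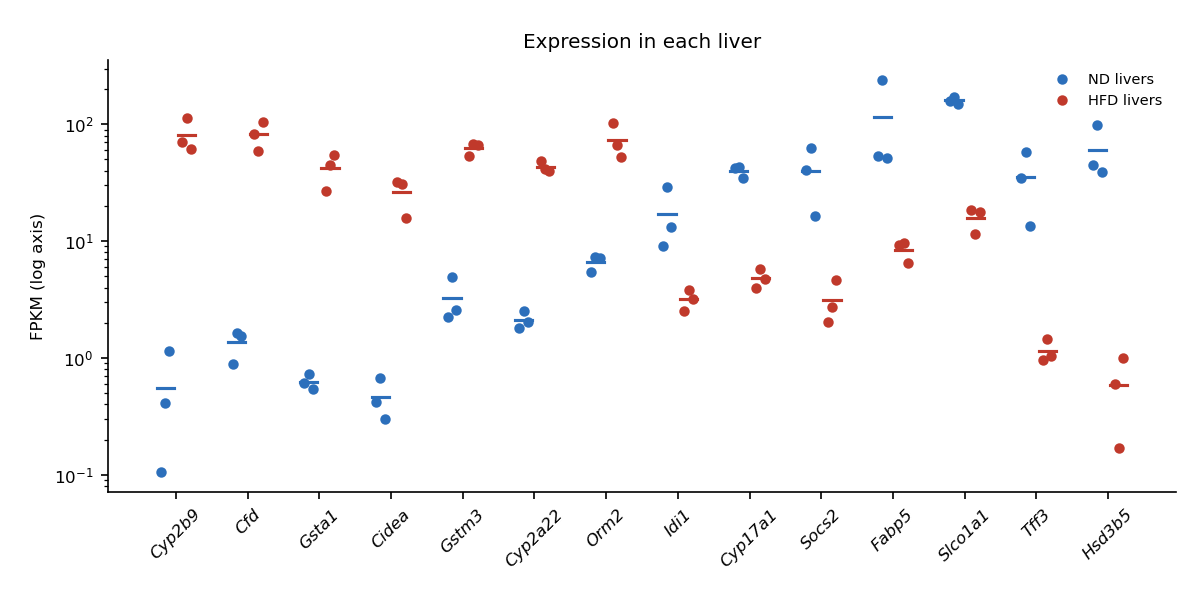
FPKM (log axis) of 14 genes in each of the 3 ND and 3 HFD livers, with points for livers and bars for group means. From Cyp2b9 to Orm2 the HFD livers lie above the ND livers, and from Idi1 to Hsd3b5 they lie below, with no overlap.

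The functional groups were read as 50 lists of genes, without the enzymes of phospholipid and sphingolipid metabolism. In each list a member was counted when it passed the filter and when the gene name held the same transcripts as the GENCODE gene, and such members are called usable. A count of 1 or 2 genes in a list could be lost when 1 mouse was left out, and larger counts that moved by over 1.5 times in this way are given with the mouse. The plot of the lists shows where the changes lay. The male-biased and cholesterol lists held lower genes and no higher ones, and few subunits of the respiratory chain, the ribosome or the proteasome passed. The cytochrome P450, glutathione S-transferase, NRF2, annexin, matrix and macrophage lists held more higher than lower genes. That balance is the usual one, since 82.6% of all genes that passed were higher, or 55.2% with median-of-ratios scaling. As deposited, 34.6% (macrophage) to 66.7% (annexin) of the usable members of these lists were higher, against 9.99% of all genes.

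**Figure D2:**
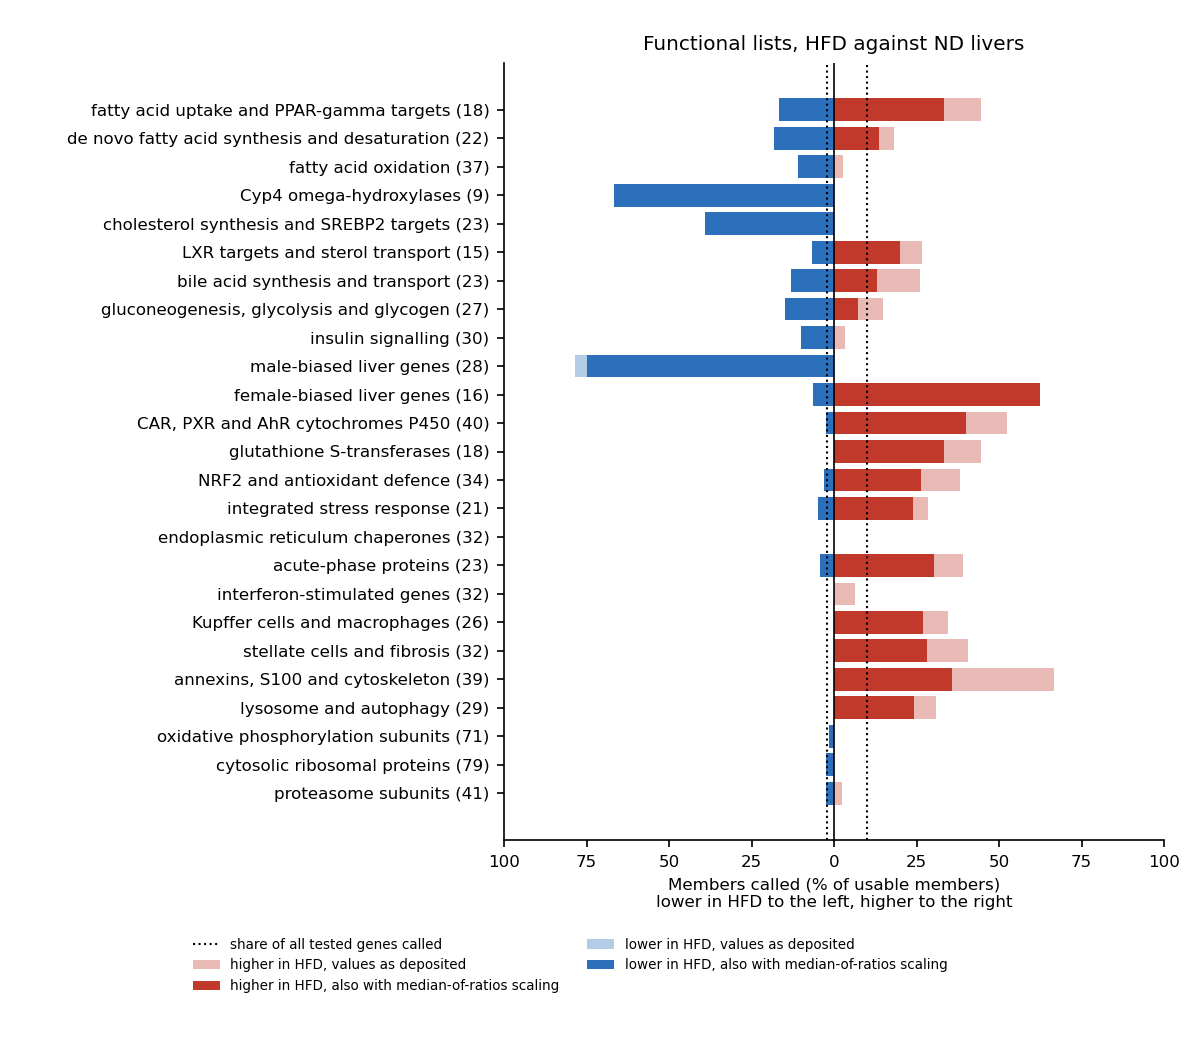
Share of the usable members (number in brackets) of 25 of the lists that passed the test higher (to the right) or lower (to the left) in HFD livers, in percent. Pale bars are the values as deposited, and dark bars the genes that also passed with median-of-ratios scaling. Dotted lines are the shares of all genes as deposited, 9.99% higher and 2.11% lower. For the dark bars to the right, the share of all genes was 5.36%, which is not drawn. The male-biased list reaches farthest to the left, with 22 of 28 members lower, and the annexin, S100 and cytoskeleton list farthest to the right, with 26 of 39 higher.

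Genes for taking fatty acids into the hepatocyte, many of them targets of the receptor PPAR-gamma, included several of the strongest rises in lipid genes. Of 18 usable members of the list (24 listed), 8 passed higher and 3 lower, 6 and 4 with median-of-ratios scaling, and 5 and 1 with the clock score, and 5 were higher without ND 4 or without HFD 12. The fatty acid carrier gene Cd36 was at 38.6, 55 and 38.8 FPKM in the ND livers and at 144, 161 and 141 in the HFD livers (1.75 ± 0.20, adjusted p = 0.00021). Lpl, the lipase that frees fatty acids from lipoproteins, was at 2.51, 4.61 and 3.69 FPKM against 15.1, 18.5 and 17.9 (2.0 ± 0.19, adjusted p = 6e-05). Both genes were higher in all 3 HFD livers than in any ND liver. Mogat1, an acyltransferase of triglyceride synthesis, was at 4.4, 4.39 and 6.28 FPKM against 26.4, 26.6 and 25.6 (2.19 ± 0.21, adjusted p = 5.4e-05), and the lipoprotein receptor gene Vldlr rose from a mean of 0.651 to 3.85 FPKM (1.55 ± 0.23, adjusted p = 0.001). Pparg itself was at 6.47, 9.08 and 7.05 FPKM against 13.5, 10.8 and 14.2 (0.70 ± 0.18, adjusted p = 0.023). The Pparg groups did not overlap, but the gene did not pass with median-of-ratios scaling (adjusted p = 0.062), with the clock score (0.36), or without ND 2 (0.099), ND 4 (0.075), HFD 12 (0.079) or HFD 18 (0.089). Fabp5, a fatty acid binding protein and 1 of the 3 lower members, was at 53.4, 241 and 51.1 FPKM in ND livers and 9.28, 9.67 and 6.44 in HFD livers (-3.24 ± 0.47, adjusted p = 0.00096). ND 3 stood far above the other ND livers for Fabp5, and the lowest ND liver was still above the highest HFD liver.

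Among 14 usable lipid droplet genes (19 listed), 2 were higher and 0 lower with both scalings, and 1 and 0 with the clock score. Cidea, a protein of droplet fusion that marks brown fat and fatty liver (chr18:67343604-67367785), was at 0.419, 0.68 and 0.302 FPKM against 32, 30.7 and 15.8 (4.15 ± 0.40, adjusted p = 6.1e-05). All HFD livers were far above the ND livers for Cidea. The abundant droplet genes did not show such a difference. Plin2, the main droplet coat protein of hepatocytes, was at 847, 706 and 854 FPKM against 749, 724 and 732 (-0.12 ± 0.18, adjusted p = 0.72), and Cidec was at 73.7, 35.6 and 65.7 against 83.4, 72.9 and 73.5 (0.45 ± 0.33, adjusted p = 0.41). Plin2 turned to 0.12 with the clock score. Plin4, another coat protein, was read from its GENCODE transcripts because its gene name held others too, and was chosen after its values were seen. It was at 6.05, 5.82 and 6.37 FPKM in ND livers and at 32.6, 45.5 and 48.9 in HFD livers (2.59, adjusted p = 0.00055). Summed by gene name as in the main test, Plin4 did not pass (0.29, adjusted p = 0.51), and its groups overlapped. Of 15 usable triglyceride synthesis genes (16 listed) 3 were higher and 1 lower, and 1 and 0 with the clock score. Dgat2, the last enzyme of the pathway, was at 157, 187 and 123 FPKM against 212, 199 and 226 (0.46 ± 0.15, adjusted p = 0.061). Of 16 usable lipases and carboxylesterases (20 listed) 2 were higher and 1 lower, 1 and 0 with the clock score, and Ces1g, a carboxylesterase of lipid handling, rose from 37.9, 35.4 and 48.8 FPKM to 146, 149 and 180 (1.94 ± 0.16, adjusted p = 2.8e-05).

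The genes that make fatty acids did not move as a block. Of 22 usable members of that list (23 listed), 4 were higher and 4 lower, 3 and 7 with median-of-ratios scaling, and 1 and 2 with the clock score. Srebf1, which encodes the factor that drives the pathway, was at 11, 14.1 and 14.5 FPKM against 46.9, 40.1 and 50.4 (1.72 ± 0.36, adjusted p = 0.0089). Srebf1 did not pass on its most abundant transcript (adjusted p = 0.17) or with the clock score (0.19). Fasn, the fatty acid synthase, was at 12.9, 29.3 and 17.1 FPKM against 23.8, 20.6 and 30.4 (0.38 ± 0.28, adjusted p = 0.42), and turned to -0.06 with the clock score. Scd1, the main desaturase, was at 2250, 7160 and 3110 FPKM against 4190, 7400 and 6440 (0.66 ± 0.44, adjusted p = 0.36). The groups overlapped for Fasn and Scd1, and ND 3 was the highest ND liver for both. Acacb, whose product malonyl-CoA restrains fatty acid entry into mitochondria, was at 15.5, 25 and 14.5 FPKM against 3, 5.25 and 5.15 (-1.81 ± 0.27, adjusted p = 0.0011). Of the elongases in the list, Elovl2 was at 504, 548 and 462 FPKM against 204, 206 and 198 (-1.31 ± 0.22, adjusted p = 0.0023, 0.089 with the clock score) and Elovl3 at 459, 315 and 409 against 144, 158 and 118 (-1.48 ± 0.22, adjusted p = 0.0013).

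Of 37 usable fatty acid oxidation genes (39 listed), 1 was higher and 4 lower, which became 0 and 9 with median-of-ratios scaling and 0 and 0 with the clock score. The number lower was 0 without ND 2, 1 without ND 4, 1 without HFD 12, 2 without HFD 15 and 2 without HFD 18. The list median was -0.17 against 0.11 over all genes. Hadhb, a subunit of the trifunctional protein of beta-oxidation, was at 275, 235 and 242 FPKM against 156, 172 and 157 (-0.63 ± 0.13, adjusted p = 0.01). Hadhb did not pass without ND 2 (adjusted p = 0.053), with the clock score (0.22) or on its most abundant transcript (0.13). The Cyp4 family, which hydroxylates the end carbon of fatty acids and is induced by PPAR-alpha, showed the wider fall. Of 9 usable Cyp4 genes (11 listed), 6 were lower and 0 higher with both scalings, with a median of -1.47. Cyp4a31 was at 60.7, 45.6 and 53.1 FPKM against 15.2, 17.9 and 13.7 (-1.70 ± 0.20, adjusted p = 0.0002), and Cyp4a12b, which is also male-biased, at 71.8, 83.4 and 65.9 against 13.6, 15.9 and 20.4 (-2.09 ± 0.19, adjusted p = 4.8e-05). Cyp4a genes are close copies of each other, so how reads were shared among them is uncertain. The number of lower Cyp4 genes was 3 without ND 2, 3 without ND 4, 2 without HFD 12, 4 without HFD 15, 3 without HFD 18 and 2 with the clock score.

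Of the usable genes of cholesterol synthesis, 9 of 23 fell in HFD livers, while the sterol exporter pair Abcg5 and Abcg8 rose. The stretches of DNA below lie in front of such genes and are shown because the genes of each side moved together. They are from the RefSeq promoter table (GRCm38.p6), 5′ to 3′ on the strand of the gene, or on the plus strand for the pair. In the first, Abcg5 and Abcg8 start head to head and share the 109 bases between their RefSeq starts, and capitals mark TTATC, the reverse of GATAA, the core of a GATA factor motif. In the other stretches capitals mark CCAAT or its reverse ATTGG, the box bound by NF-Y, a factor known to act with SREBP2.
Abcg5 and Abcg8, chr17:84683012-84683120: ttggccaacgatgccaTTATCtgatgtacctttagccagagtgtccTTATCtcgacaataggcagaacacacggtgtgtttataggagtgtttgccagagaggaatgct
Hsd17b7, chr1:169969242-169969455, minus strand: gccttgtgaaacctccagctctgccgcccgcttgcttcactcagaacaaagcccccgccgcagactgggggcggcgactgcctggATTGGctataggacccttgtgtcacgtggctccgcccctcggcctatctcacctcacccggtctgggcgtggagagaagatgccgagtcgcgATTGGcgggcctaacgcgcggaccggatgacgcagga
Pmvk, chr3:89454291-89454540, plus strand: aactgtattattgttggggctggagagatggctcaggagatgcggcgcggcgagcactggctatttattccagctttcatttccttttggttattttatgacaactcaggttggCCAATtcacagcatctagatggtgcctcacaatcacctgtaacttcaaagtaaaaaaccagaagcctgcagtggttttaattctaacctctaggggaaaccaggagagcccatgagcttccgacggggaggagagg
CCAAT was searched on both strands in the 250 bases before the start. It was in 14 of the 15 usable cholesterol genes that had a window, and in all 5 that fell and had one. A gene counted when any of its windows held the box, whereas 33.8% of all 32851 windows, taken singly, held it. A gene with several windows has more chances, so the share of windows is not a matched base rate for the genes. GATAA occurred 2 times and CCAAT 0 times between Abcg5 and Abcg8, and of all windows of that length 9.4% held GATAA and 20.1% held CCAAT. A match is a run of letters and not a measured binding site.

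Of 23 usable cholesterol genes (26 listed), 9 were lower and 0 higher, 10 and 0 with median-of-ratios scaling and 9 and 0 with the clock score, and 8 or 9 were lower whichever mouse was left out. The list median was -0.40 against 0.11 over all genes. Idi1, an isomerase of the isoprenoid steps (chr13:8885501-8892451), was at 9.11, 28.8 and 13.1 FPKM in ND livers and 2.54, 3.84 and 3.2 in HFD livers (-1.96 ± 0.33, adjusted p = 0.0024). Sqle, the squalene epoxidase (chr15:59315077-59331192), was at 2.05, 5.27 and 3.54 FPKM against 0.318, 0.471 and 0.558 (-1.62 ± 0.20, adjusted p = 0.00035), and Cyp51, the lanosterol demethylase (chr5:4081145-4104746), at 11.4, 18.5 and 10.2 against 3.12, 4.24 and 3.55 (-1.59 ± 0.20, adjusted p = 0.0003). All 3 HFD livers were below every ND liver for these genes, and ND 3 was the highest liver for each. The genes whose promoters are printed above were chosen after their values were seen. Hsd17b7, which reduces a sterol ketone, was at 22.7, 20.3 and 22.3 FPKM against 9.47, 12.1 and 8.98 (-1.04 ± 0.14, adjusted p = 0.00062), but 0.16 on its most abundant transcript and 0.14 on known transcripts alone. Pmvk, the phosphomevalonate kinase, was at 9.04, 14.8 and 9.37 FPKM against 5.45, 5.79 and 5.5 (-0.84 ± 0.18, adjusted p = 0.0089). As the plot of sterol genes shows, 9 of the 14 members that did not pass lay below 0 too.

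**Figure D3:**
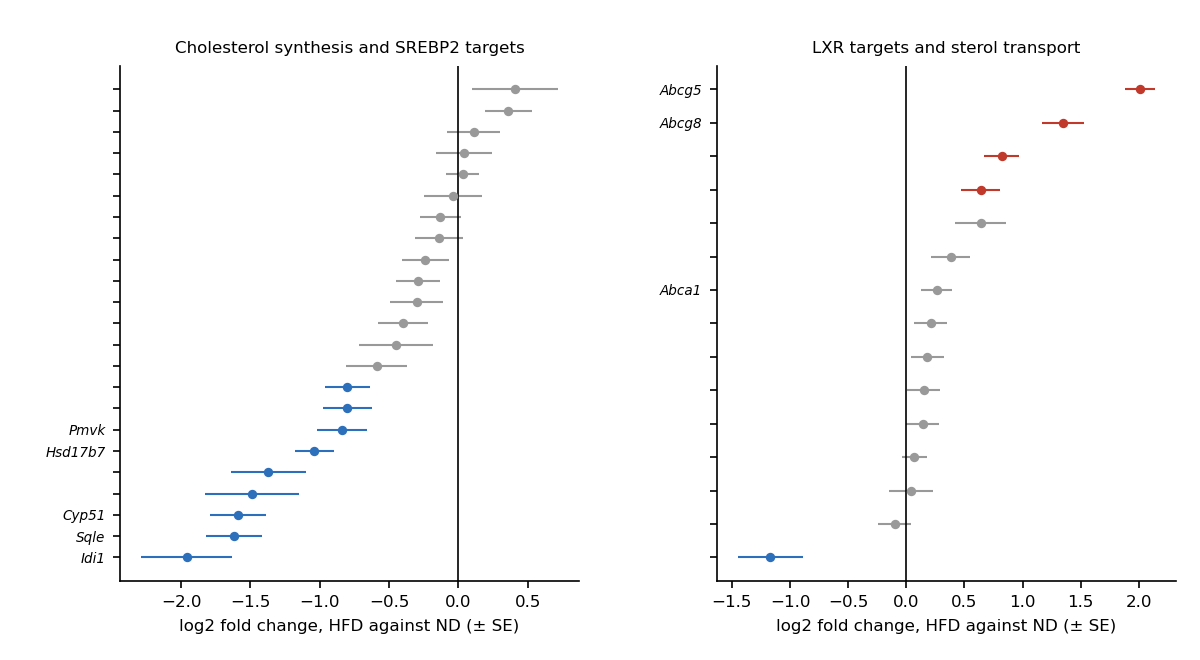
Log2 fold change of HFD over ND (± SE) of every usable gene of cholesterol synthesis with SREBP2 targets (left) and of LXR targets with sterol transport (right), with names for the genes described in the text. Red points passed higher, blue points passed lower and grey points did not pass, and the cholesterol list holds blue and grey points with none in red.

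Of 15 usable LXR targets and sterol transporters (15 listed), 4 were higher and 1 lower, 3 and 1 with median-of-ratios scaling and 2 and 1 with the clock score. Abcg5, which with Abcg8 pumps sterols into bile (chr17:84658234-84683011), was at 26.7, 30.7 and 29.4 FPKM against 131, 107 and 120 (2.01 ± 0.13, adjusted p = 3.1e-06). Abcg8 (chr17:84676302-84700333) was at 22.5, 23.7 and 23.5 FPKM against 63.4, 53.6 and 65.3 (1.35 ± 0.18, adjusted p = 0.00056). Both genes of the transporter were above all ND values in every HFD liver. An Abcg8 transcript starts inside Abcg5, so reads there can count to either gene. Abca1, the exporter to high-density lipoprotein and also an LXR target, was at 40.9, 56.6 and 52.5 FPKM against 58.2, 54.9 and 66.5 (0.26 ± 0.13, adjusted p = 0.23).

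In bile acid metabolism, the enzymes split. Of 23 usable members (25 listed), 6 were higher and 3 lower, 3 and 3 with median-of-ratios scaling and 1 and 1 with the clock score, and the higher members numbered 2 without ND 2, 2 without HFD 12 and 3 without HFD 18. Cyp7a1, the rate-limiting enzyme of the classic route, was at 118, 183 and 89 FPKM against 83.8, 118 and 157 (-0.10 ± 0.27, adjusted p = 0.85), and its sign turned when 1 mouse was left out, to 0.17 without ND 3 and 0.13 without HFD 12. Cyp8b1, which sets the share of cholic acid, fell from 583, 449 and 556 FPKM to 232, 277 and 288 (-0.99 ± 0.17, adjusted p = 0.003, 0.064 with the clock score). Cyp7b1, of the alternative route and male-biased, fell from 140, 103 and 114 FPKM to 34.2, 26.5 and 28.3 (-1.96 ± 0.37, adjusted p = 0.0049, 0.084 with the clock score). Abcc3, an exporter of bile acids and conjugates towards the blood, rose from 42.6, 54.5 and 70.3 FPKM to 136, 132 and 135 (1.28 ± 0.16, adjusted p = 0.00034). Neither diet's values overlapped for Cyp8b1, Cyp7b1 or Abcc3. Of 21 usable apolipoprotein and lipoprotein assembly genes (23 listed), 2 were higher and 4 lower, and 1 and 2 with the clock score. Apom, the carrier of sphingosine-1-phosphate in high-density lipoprotein, was at 132, 94.3 and 108 FPKM against 33.3, 40.3 and 29.9 (-1.66 ± 0.19, adjusted p = 0.00016). Mttp, which loads lipid onto the apolipoprotein of very-low-density lipoprotein, was at 147, 154 and 145 FPKM against 88.5, 113 and 90.9 (-0.61 ± 0.13, adjusted p = 0.0087), but its adjusted p was 0.086 on the most abundant transcript, 0.091 on known transcripts and 0.2 with the clock score.

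Insulin normally lowers the genes of glucose output and Igfbp1 in the liver. Of 27 usable genes of gluconeogenesis, glycolysis and glycogen (31 listed), 4 were higher and 4 lower, 2 and 6 with median-of-ratios scaling and 1 and 0 with the clock score. The higher genes numbered 2 without ND 2, HFD 15 or HFD 18, and the lower 2 without ND 2 or ND 3, 1 without ND 4 or HFD 15 and 0 without HFD 12 or HFD 18. Pck1, the first dedicated enzyme of gluconeogenesis, was at 1350, 1010 and 1430 FPKM against 784, 867 and 708 (-0.67 ± 0.16, adjusted p = 0.019). The Pck1 groups did not overlap, yet its adjusted p was 0.082 without ND 2, 0.078 without ND 4, 0.056 without HFD 12, 0.078 without HFD 18 and 0.46 with the clock score. Of 30 usable insulin signalling genes (30 listed), 1 was higher and 3 lower, 0 and 5 with median-of-ratios scaling and 0 and 1 with the clock score. Irs2, the insulin receptor substrate that insulin itself represses, was at 9.21, 13.5 and 10.7 FPKM against 4.34, 2.45 and 3.25 (-1.49 ± 0.20, adjusted p = 0.00064). Insr, the receptor, was at 27.2, 35.1 and 36.7 FPKM against 27.1, 29.8 and 28.7 (-0.19 ± 0.13, adjusted p = 0.37). Igfbp1, a secreted binding protein of IGF1, was at 221, 71.5 and 281 FPKM against 29.1, 46.9 and 29.5 (-2.23 ± 0.41, adjusted p = 0.0049, 0.12 with the clock score). Irs2 and Igfbp1 were lower in all HFD livers than in any ND liver.

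With the values as deposited, the male-biased list held the largest share of lower genes of any list. Of 28 usable male-biased genes (31 listed), 22 were lower and 0 higher, 21 and 0 with median-of-ratios scaling, against 2.11% and 4.36% of all genes, and the median was -1.67 against 0.11. The number lower was 10 without ND 2, 12 without HFD 15, 13 without HFD 18 and 7 with the clock score, and without ND 2 or with the clock score the share was below that of the cholesterol list, with 9 of 23 lower in both. Slco1a1, an uptake transporter of organic anions (chr6:141907282-141946962), was at 159, 172 and 150 FPKM against 18.4, 11.4 and 17.9 (-3.28 ± 0.35, adjusted p = 0.00011). Mup7, a major urinary protein, was at 4840, 2940 and 1960 FPKM against 252, 66 and 195 (-4.34 ± 0.85, adjusted p = 0.0064, 0.053 with the clock score). Both were lower in every HFD liver than in any ND liver. The 16 usable Mup genes, 11 of them lower, are close copies, so reads may be divided among them and they are not separate evidence, whereas Slco1a1, Elovl3 and Cyp7b1 lie elsewhere in the genome.

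Of the female-biased genes, 10 of 28 had too low a mean to be tested and 16 were usable. Among these 16, 10 were higher and 1 lower with both scalings, 9 and 1 with the clock score, and 10 were higher whichever mouse was left out. Because 5 of the 16 had an ND mean under 0.5 FPKM and were tested through the level of other groups, the count speaks for those tested and not for female-biased genes in general. Cyp2b9 led the list. Sult1e1, the oestrogen sulfotransferase, was at 0.399, 0.192 and 0.0822 FPKM against 12, 6.61 and 15.2 (3.26 ± 0.28, adjusted p = 2.9e-05). Further members, chosen after their values were seen, were also near 0 in ND livers. Cyp2a4, a steroid hydroxylase with a near-identical neighbour in Cyp2a5, was at 0.0578, 0.402 and 0.0498 FPKM against 4.18, 5.66 and 4.0 (2.26 ± 0.21, adjusted p = 4.8e-05). Slc22a27, an organic anion transporter, was at 0.209, 0.487 and 0.461 FPKM against 4.65, 6.97 and 5.05 (2.23 ± 0.24, adjusted p = 0.00013). Hao2, a hydroxy acid oxidase of peroxisomes, was listed at 0 in the 3 ND livers and at 1.77, 2.44 and 1.58 FPKM in the HFD livers (adjusted p = 2.8e-05). For each of them the lowest HFD liver was above the highest ND liver. Cyp17a1, an enzyme of androgen synthesis in the same list (chr19:46667165-46673172), went the other way, from 42.1, 42.9 and 34.5 FPKM to 3.99, 5.75 and 4.74 (-2.81 ± 0.19, adjusted p = 5.9e-06). The defining member Cux2, which is strongly female-biased, was at or under 0.296 FPKM in all 6 livers and was not tested.

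**Figure D4:**
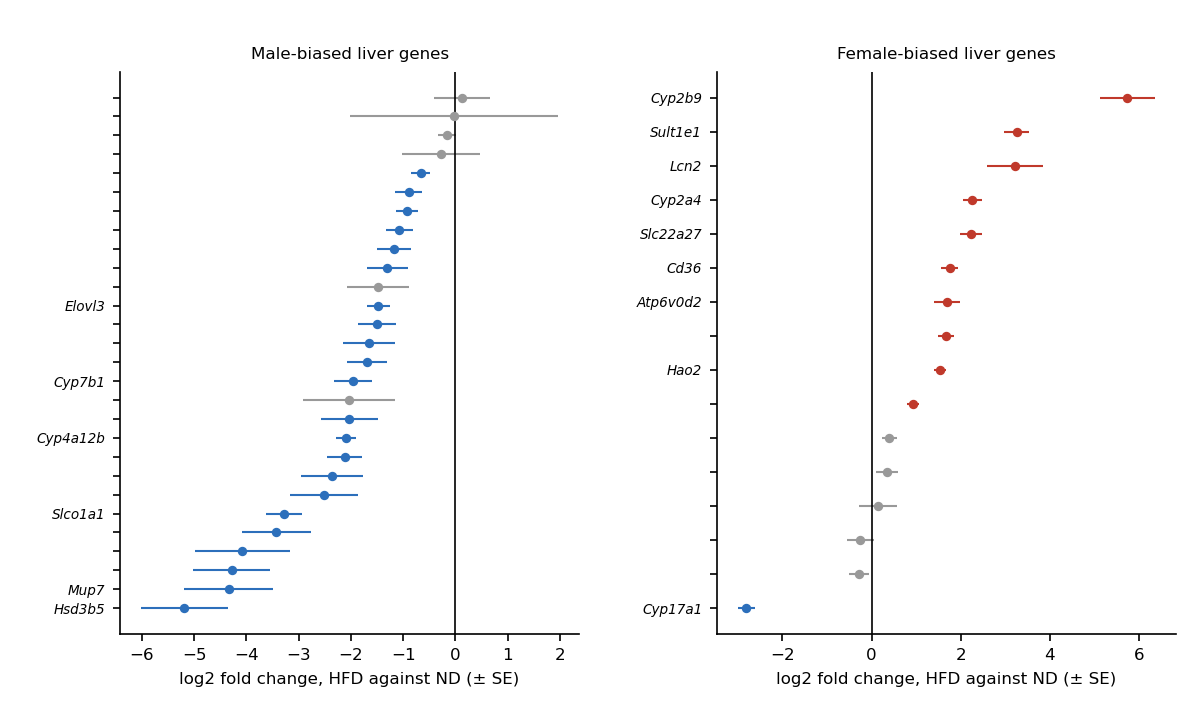
Log2 fold change of HFD over ND (± SE) of every usable male-biased and female-biased liver gene, with blue for genes that passed lower, red for those that passed higher and grey for the rest, and names for the genes described in the text. The male-biased genes lie to the left of 0 or near it, and 13 of the 16 female-biased genes lie to the right, 10 of them in red, with Cyp17a1 as the 1 that fell.

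Growth hormone acts on these genes through STAT5B. Of 16 usable genes of that pathway and of IGF1 (19 listed), 2 were higher and 4 lower with both scalings and 1 and 2 with the clock score, and 4 were lower whichever mouse was left out. Socs2, a feedback inhibitor and direct STAT5 target (chr10:95385362-95417180), was at 40.3, 62.6 and 16.3 FPKM against 2.04, 2.72 and 4.62 (-3.16 ± 0.56, adjusted p = 0.0034). Egfr, whose hepatic level depends on growth hormone, was at 126, 183 and 169 FPKM against 22.6, 18.5 and 39.6 (-2.58 ± 0.33, adjusted p = 0.00039). Both fell in all 3 HFD livers to levels below every ND liver. Igf1, the main growth hormone target that is secreted by the liver, was at 274, 266 and 263 FPKM against 239, 207 and 237 (-0.23 ± 0.13, adjusted p = 0.28), so its groups did not overlap but its change did not pass.

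The cytochromes P450 that are switched on by the receptors CAR, PXR and AhR included some of the largest rises. Of 40 usable members of that list, with the receptors included (49 listed), 21 were higher and 1 lower, 16 and 3 with median-of-ratios scaling and 13 and 1 with the clock score. The list median was 0.57 against 0.11 over all genes, and 4 of the 40 had an ND mean under the 0.5 FPKM filter. Cyp2a5, the coumarin hydroxylase, was at 37.3, 58.2 and 28.9 FPKM against 553, 443 and 580 (3.68 ± 0.34, adjusted p = 4.7e-05), and its neighbour Cyp2a22 at 1.81, 2.52 and 2.02 against 48.4, 41.5 and 40.2 (3.83 ± 0.23, adjusted p = 2.9e-06). Cyp3a11, the main PXR target and an abundant drug-metabolizing enzyme, was at 474, 578 and 792 FPKM against 2490, 2290 and 2050 (1.91 ± 0.17, adjusted p = 3.9e-05). Cyp2b10, the classic CAR target, was at 0, 0 and 0.235 FPKM against 2.26, 2.64 and 0.944 (1.41 ± 0.21, adjusted p = 0.0012). The diets did not overlap for any of these, and Cyp2b10 was far below its neighbour Cyp2b9 on the FPKM scale. Genes of the Cyp2a and Cyp2b clusters are close copies, so the split between members is uncertain. The 1 lower member was Cyp17a1, described above, which is not a drug-metabolizing enzyme.

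The enzymes that join glutathione or other groups to drugs held more higher than lower genes, as did all genes together, and most did not pass. Of 18 usable glutathione S-transferases (23 listed), 8 were higher and 0 lower, 6 and 0 with median-of-ratios scaling and 4 and 0 with the clock score. Gsta1 (chr9:78230656-78242684) was at 0.607, 0.726 and 0.545 FPKM against 27, 44.8 and 54.3 (4.67 ± 0.28, adjusted p = 2.9e-06), and Gstm3 at 2.23, 4.98 and 2.56 against 53.3, 67.3 and 66.9 (3.95 ± 0.50, adjusted p = 0.00037). Each HFD liver was far above the highest ND liver for both genes. Gsta4, which clears the lipid peroxidation product hydroxynonenal, was at 14.7, 17.1 and 27.2 FPKM against 61, 62.5 and 51.8 (1.56 ± 0.21, adjusted p = 0.00053). Gstp1 was at 921, 560 and 747 FPKM against 485, 472 and 352 (-0.75 ± 0.27, adjusted p = 0.087) with no overlap, and its log2 fold change was 0.00 on known transcripts alone. Gsta1 and Gsta2 are near-identical copies, and their separate values are uncertain. Of 16 usable sulfotransferase and glucuronosyltransferase genes (29 listed), 5 were higher and 1 lower with both scalings and 4 and 0 with the clock score. Beside Sult1e1, Sult1d1, a sulfotransferase of catecholamines, went from 47.9, 53.1 and 62 FPKM to 120, 118 and 108 (1.08 ± 0.16, adjusted p = 0.00098). Of 20 usable hepatocyte transporters (24 listed), 8 were higher and 2 lower, 4 and 3 with median-of-ratios scaling and 3 and 1 with the clock score. Slc13a3, a carrier of dicarboxylates such as succinate, was at 2.25, 4.28 and 2.8 FPKM against 20.6, 19.6 and 22.1 (2.43 ± 0.20, adjusted p = 2.8e-05). The higher transporters numbered 3 without ND 2, 5 without HFD 12, 5 without HFD 15 and 4 without HFD 18.

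NRF2 turns on genes that defend cells against oxidants. Of 34 usable members of that list (38 listed), 13 were higher and 1 lower, 9 and 1 with median-of-ratios scaling and 8 and 0 with the clock score, and 9 to 11 were higher when 1 mouse was left out. Nqo1, the quinone reductase that is a standard NRF2 target, was at 4.2, 4.48 and 4.63 FPKM against 11, 13.4 and 10.9 (1.23 ± 0.18, adjusted p = 0.001). Aox1, an aldehyde oxidase, was at 16.8, 16.2 and 16.5 FPKM against 41.7, 42.6 and 46.6 (1.35 ± 0.14, adjusted p = 0.0001). Gclc, the catalytic subunit that limits glutathione synthesis, was at 101, 87.2 and 90.2 FPKM against 172, 186 and 158 (0.88 ± 0.14, adjusted p = 0.0015, 0.14 on known transcripts alone). The HFD livers were above the ND livers for all of these. Gsta1 and Gsta4 belong to this list as well as to the transferases, so the lists are not independent.

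Of 21 usable genes of the integrated stress response (27 listed), which is run by the factor ATF4, 6 were higher and 1 lower, 5 and 1 with median-of-ratios scaling and 2 and 0 with the clock score. The higher genes numbered 4 without ND 2, 4 without ND 3, 3 without HFD 12 and 3 without HFD 18. Ddit3, which encodes the factor CHOP, was at 8.63, 5.94 and 5.03 FPKM against 24, 17.8 and 10.8 (1.26 ± 0.24, adjusted p = 0.0058), and Gdf15, a hormone released by stressed cells, at 0.728, 1.58 and 3.53 against 25, 13.1 and 13.2 (2.67 ± 0.55, adjusted p = 0.008, 0.051 with the clock score). Every HFD liver was above every ND liver for both. Atf4 had a log2 fold change of 0.18 (adjusted p = 0.37), and Fgf21, a hormone that ATF4 and PPAR-alpha both induce, one of -0.93 (adjusted p = 0.15). Of 32 usable endoplasmic reticulum chaperones (33 listed), 0 were higher and 0 lower by limma, with 5 higher and 1 lower at an unadjusted p under 0.05, and 1 was lower with median-of-ratios scaling.

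Acute-phase genes, which hepatocytes express on inflammatory signals, rose in part. Of 23 usable members (29 listed), 9 were higher and 1 lower, 7 and 1 with median-of-ratios scaling and 4 and 0 with the clock score, and the higher genes numbered 4 without ND 2, 6 without ND 3 and 5 without HFD 12. Orm2, an orosomucoid (chr4:63362449-63365878), was at 5.42, 7.25 and 7.23 FPKM against 102, 66.1 and 52.7 (3.24 ± 0.32, adjusted p = 7.6e-05). Saa1, a serum amyloid A, was at 14.4, 29.9 and 35.5 FPKM against 294, 146 and 116 (2.73 ± 0.51, adjusted p = 0.0049), and Lcn2, which withholds iron from bacteria, at 1.1, 3.04 and 5.24 against 55.4, 24.5 and 28.6 (3.22 ± 0.63, adjusted p = 0.0063). HFD 12 was the highest liver for these genes, and the groups did not overlap. The Orm and Saa genes are close copies, so the member that a read came from is uncertain. Complement and coagulation genes did not follow. Of 35 usable (45 listed) 4 were higher and 3 lower, 1 and 4 with median-of-ratios scaling and 0 and 2 with the clock score. The higher numbered 2 without ND 2, ND 3 or ND 4 and 0 without HFD 12 or HFD 18, and the lower 1 without ND 2, ND 3 or HFD 15. In this list C8b, a part of the membrane attack complex, fell from 148, 151 and 120 FPKM to 39.8, 32.3 and 36.3 (-1.92 ± 0.20, adjusted p = 0.00011), whereas C9 had a log2 fold change of 0.26 (adjusted p = 0.4). Of 32 usable interferon-stimulated genes (39 listed), 2 were higher and 0 lower, 0 of either with median-of-ratios scaling or the clock score, and 5 and 1 on the 6 livers alone.

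With the values as deposited, markers of several cell types other than hepatocytes had higher summed levels in HFD livers. In whole liver, more or fewer cells of a type and more or less RNA per cell cannot be told apart. The summed level of the Kupffer cell and macrophage list was 272 to 285 FPKM in ND livers and 423 to 561 in HFD livers, and that of the stellate cell and matrix list 537 to 635 against 714 to 851. The matrix genes named below held little of the latter sum, and most of it came from other members. The hepatocyte list stayed at 29400 to 32600 against 30900 to 34100 FPKM, although albumin was listed at 0 in all 6 livers, which in this kind of file can be a failed estimate. The endothelial sum was 197 to 232 against 231 to 244, that of lymphocytes and neutrophils 11.2 to 15.2 against 14.8 to 21.9, that of MHC class II genes 134 to 181 against 218 to 282, that of cholangiocytes 30.3 to 59.2 against 61.6 to 80.8 and that of blood 63.2 to 79.3 against 97 to 134. As deposited, the macrophage, matrix, MHC class II, cholangiocyte and blood sums did not overlap between the diets. Those of endothelial cells, of lymphocytes and neutrophils, and of hepatocytes did. The sums above were not rescaled. The divisors of median-of-ratios scaling were 0.8944 to 0.9636 in ND livers and 1.014 to 1.048 in HFD livers, so that scaling would bring the diets closer. The gaps of the matrix and cholangiocyte sums were narrow and do not hold with it. After division, the matrix sum of ND 4 (635, divisor 0.9151) lies above that of HFD 15 (714, divisor 1.035). The cholangiocyte sum of ND 4 (59.2) then lies above that of HFD 12 (61.6, divisor 1.014).

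**Figure D5:**
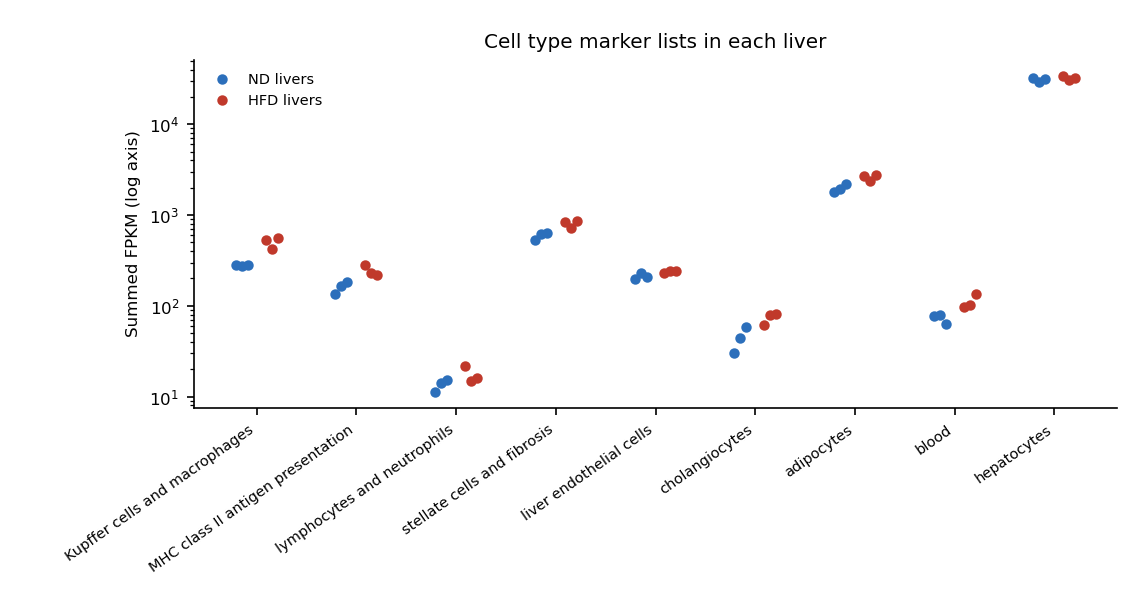
Summed FPKM (log axis) of 9 lists of cell type markers in each of the 3 ND and 3 HFD livers, with 1 point per liver. The macrophage sum lies between 272 and 285 in ND livers and between 423 and 561 in HFD livers, and the hepatocyte sums overlap.

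Of 26 usable macrophage genes (30 listed), 9 were higher and 0 lower, 7 and 1 with median-of-ratios scaling, 2 and 0 with the clock score and 17 and 0 when the 6 livers were fitted alone, and the higher genes numbered 6 without ND 2, 5 without ND 3, 5 without HFD 12 and 5 without HFD 18. Ccl2, the chemokine that draws monocytes, was at 0.88, 0.797 and 0.735 FPKM against 5.62, 3.65 and 3.75 (1.55 ± 0.32, adjusted p = 0.0085), and Cd68, a lysosomal glycoprotein of macrophages, at 2.98, 3.46 and 3.47 against 9.64, 7.59 and 9.59 (1.20 ± 0.25, adjusted p = 0.0096, 0.053 with the clock score). Their HFD values were all above their ND values. Markers of Kupffer cells, the resident macrophages, were divided. Cd5l was at 41.6, 40.7 and 41.1 FPKM against 100, 69.3 and 112 (1.14 ± 0.23, adjusted p = 0.0072), with no overlap. Clec4f was at 36.2, 34 and 33.7 FPKM against 50.4, 37.7 and 53.9 (0.42 ± 0.17, adjusted p = 0.12), also with no overlap, and Adgre1 had a log2 fold change of 0.40 (adjusted p = 0.31). Of 9 usable MHC class II genes (17 listed) 1 was higher and 0 lower, 0 and 0 with quantile normalization or the clock score, and 6 and 0 on the 6 livers alone. Of 10 usable lymphocyte and neutrophil genes (27 listed) 0 were higher and 1 lower, and 0 of either with the clock score. Of 6 usable blood genes (12 listed) 1 was higher, 3 on the 6 livers alone and 0 with the clock score. Of 20 usable endothelial genes (24 listed) 1 was higher, and 0 with median-of-ratios scaling or the clock score.

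Some of the matrix genes made by stellate cells were higher in HFD livers, at low levels. Of 32 usable members of the stellate and fibrosis list (38 listed), 13 were higher and 0 lower, 9 and 0 with median-of-ratios scaling and 0 and 0 with the clock score, and the higher genes numbered 5 without ND 2, 6 without HFD 12 and 5 without HFD 18. Col3a1, a fibril collagen, was at 3.29, 3.53 and 3.8 FPKM against 13.2, 13.4 and 16.9 (1.77 ± 0.34, adjusted p = 0.0059, 0.059 with the clock score). Sparc, a matrix glycoprotein that binds collagen, was at 10.2, 13.4 and 13.2 FPKM against 27, 25 and 28.3 (1.07 ± 0.20, adjusted p = 0.0044, 0.072 with the clock score). Both were higher in each HFD liver than in any ND liver. Timp1, an inhibitor of matrix breakdown that marks activated stellate cells, was at 0, 0.186 and 0 FPKM against 0.413, 0.591 and 0.669 (0.55 ± 0.25, adjusted p = 0.17), and passed with a pseudocount of 0.1 (0.035). Acta2, an actin gene of the same list, was at 1.39, 0.869 and 0.642 FPKM against 0.792, 1.3 and 1.02 (0.06 ± 0.29, adjusted p = 0.92), and its groups overlapped.

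Genes of annexins, S100 proteins, tubulins, actins and keratins were higher in the largest share of any list with the values as deposited. Of 39 usable members (42 listed), 26 were higher and 0 lower, 14 and 0 with median-of-ratios scaling and 8 and 0 with the clock score, against 9.99% and 5.36% of all genes higher. The median was 0.72 against 0.11, and the higher genes numbered 15 without ND 2, 17 without ND 3, 16 without ND 4 and 13 without HFD 12. Anxa2, a calcium-dependent membrane binding protein, was at 8.93, 9.75 and 11.3 FPKM against 54.3, 52.9 and 52.3 (2.31 ± 0.22, adjusted p = 6e-05). Lgals1, a galactoside-binding lectin, was at 9.18, 16.5 and 13.2 FPKM against 105, 85.6 and 74.5 (2.70 ± 0.30, adjusted p = 0.00015). Krt8, a keratin that hepatocytes themselves express, was at 69.6, 68.8 and 84.1 FPKM against 215, 165 and 213 (1.40 ± 0.15, adjusted p = 0.00011). All 3 genes were separated by diet in every liver. Krt23, a keratin of the cholangiocyte list, was at 1.41, 0.924 and 3.56 FPKM against 12.9, 7.79 and 9.95 (1.99 ± 0.31, adjusted p = 0.0017), and was the 1 of 7 usable cholangiocyte genes (14 listed) that passed.

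Adipocyte genes moved without their defining members. Of 7 usable (14 listed), 3 were higher, Cfd among them, and 1, Pck1, was lower with both scalings, and 1 was higher without HFD 12 or with the clock score. The summed level of the list was 1790 to 2170 FPKM in ND livers and 2370 to 2750 in HFD livers, but most of it was Pck1 and Car3, which hepatocytes express abundantly. Car3, a carbonic anhydrase, was at 414, 883 and 712 FPKM against 1760, 1400 and 1900, so the sum is not a level of adipocytes. Adipoq was listed at 0.0805, 0 and 0 FPKM in ND livers and 0.0369, 0 and 0 in HFD livers, Lep at 0 in all 6, and Plin1 at no more than 0.0264 FPKM. These adipocyte-defining genes were therefore at or near 0 in the livers in which Cfd reached 58.9 to 104 FPKM.

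Of 29 usable lysosome and autophagy genes (33 listed), 9 were higher and 0 lower, 7 and 0 with median-of-ratios scaling and 2 and 0 with the clock score, and 5 were higher without ND 2. Atp6v0d2, a subunit of the proton pump that acidifies lysosomes and also a member of the female-biased list, was at 0.321, 0.856 and 0.905 FPKM against 3.12, 4.15 and 6.4 (1.69 ± 0.30, adjusted p = 0.0038, 0.088 with the clock score), with no overlap. Few genes of the broad machinery of mitochondria and protein turnover passed. Of 71 usable subunits of oxidative phosphorylation (75 listed), 0 were higher and 1 lower (median 0.04), and of 79 usable cytosolic ribosomal proteins (86 listed), 0 were higher and 2 lower (median 0.02). Of 41 usable proteasome subunits (42 listed), 1 was higher and 1 lower (median 0.06). These medians lay just under the 0.11 of all genes. With median-of-ratios scaling 0 of these genes were higher, and 4, 2 and 1 were lower in that order, against 4.36% of all genes. Their medians were then -0.12, -0.14 and -0.10, against -0.01 over all genes. With the clock score 0 subunits of the respiratory chain or ribosome and 1 of the proteasome passed.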

How the data were processed

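RNA of the livers was sequenced from TruSeq mRNA libraries, and the authors deposited FPKM values per transcript, made per the submitters' processing notes with CASAVA 1.8.2, Bowtie2 2.2.3, TopHat2 2.0.12 and Cufflinks 2.2.1. The genome build was not given in the sources used here, and of the 78786 known transcripts 87.6% begin and end as in GENCODE M21 (GRCm38). The deposited table also names 73424 transcripts assembled over 30 samples, and only the 12 livers were used. In the ND and HFD livers 72.7 to 85.1% of FPKM lay in assembled transcripts without a reference, so scalings by other means were run as well. Neither counts nor depths were given, so the depth is unknown, as is the error of counting. FPKM were summed per gene name, and genes that averaged 0.5 FPKM or more were tested with limma 3.58.1 (R 4.3.3, moderated test with variance trend, two-sided) on log2(FPKM + 1) over all 12 livers, with the contrast HFD minus ND. The study's own count-based test could not be run on FPKM. The fit was tested on simulated data. Since some gene names hold transcripts of other genes, a list member was counted only where its sum was 0.9 to 1.1 times that of the GENCODE gene. The clock score did not follow this rule, and 3 of its 21 genes had such mixed names. Genes are named from the anchors of each list, the members with the largest change that passed with both scalings without overlap, up to 4 in each list, and the 15 largest rises and falls, unless said otherwise, and some genes are not reported here. Members and lists were chosen with earlier results of these data known. P-values set the difference between the diets against the spread between mice within groups. That spread was estimated over all 12 livers, those of the CLE and LU mice included, and 1837 genes passed on the 6 livers alone. Alternatives were other pseudocounts, filters, scalings, gene models and transcript sets, the 6 livers alone, each mouse left out, and the clock score.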

Additional observations from a re-analysis of the deposited data

How the results depend on the processing

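The count of 1400 genes (1156 higher, 244 lower) stayed within 1.5 times with a pseudocount of 0.1, without the filter or with a mean of at least 5 FPKM, without the variance trend, on the 6 livers alone and on GENCODE genes. It was 645 (512 higher, 133 lower) on the most abundant transcript of each gene, 661 (521 and 140) on known transcripts alone and 270 (209 and 61) with the clock score, which was added, like the GENCODE genes, after the data were seen. The split was 620 higher and 504 lower with median-of-ratios scaling, 585 and 465 with quantile normalization and 601 and 492 on GENCODE genes with median-of-ratios scaling. With 1 mouse left out, which leaves 2 in its group, the total was 656 to 1133, the higher genes 520 to 939 and the lower 135 to 194. Of 97 genes named with a test (Acta2, Plin4 and Per2 not counted), 95 kept direction and side of the threshold with median-of-ratios scaling. The number was 75 with the clock score and 91 on the most abundant transcript. With the clock score 20 no longer passed, Plin2 turned to 0.12 and Fasn to -0.06, and on known transcripts alone Gstp1 was at 0.00. Cyp7a1, which had not passed, ranged from -0.34 to 0.17 over the 6 fits that leave out 1 mouse. The cause of these changes was not tested, apart from the smaller groups when 1 mouse is left out. No paired analysis was possible because the HFD and ND mice share no numbers in the labels. Without counts, no limit from depth can be given, and genes near 0 FPKM are the least certain.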

Other observations

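Several genes outside the lists were among the 15 largest rises or falls. Tff3, a trefoil peptide of mucosa that hepatocytes also express (chr17:31125306-31129646), was at 34.5, 58.4 and 13.6 FPKM in ND livers and 0.96, 1.46 and 1.03 in HFD livers (log2 fold change -3.87 ± 0.37 SE, adjusted p = 5.4e-05). Lepr, the leptin receptor (chr4:101717404-101815352), was at 28.5, 15.8 and 27.5 FPKM against 1.9, 1.37 and 2.0 (-3.14 ± 0.31, adjusted p = 6.6e-05). Both fell to levels below every ND liver. Adam11, a member of the ADAM family without protease activity, was at 2, 2.48 and 1.72 FPKM against 22, 18.3 and 25.7 (2.90 ± 0.21, adjusted p = 1.1e-05). Themis, known from T cell development, was at 0.458, 0.651 and 0.965 FPKM against 12.4, 9.9 and 12.3 (2.90 ± 0.24, adjusted p = 2.8e-05), while 0 of 10 usable lymphocyte and neutrophil genes were higher. Ifi27l2b, of an interferon-inducible family, was at 2.42, 4.27 and 4.67 FPKM against 33.4, 31.8 and 30.2 (2.81 ± 0.29, adjusted p = 9e-05), while 2 of 32 usable interferon-stimulated genes were higher. For these 3 genes too, every HFD liver was above every ND liver.

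Of 18 usable clock genes (21 listed), 3 were higher and 1 lower, 2 and 3 with median-of-ratios scaling and 0 and 0 with the clock score, which was made from 21 clock genes. The higher numbered 1 when any mouse other than ND 3 was left out, and the lower 2 without ND 3 or HFD 15 and 0 in the other such fits. Bhlhe40, a repressor in the clock, was at 5.11, 7.25 and 8.06 FPKM against 18.8, 21.9 and 20.9 (1.48 ± 0.23, adjusted p = 0.0018, 0.066 with the clock score). Arntl, which encodes BMAL1, was at 5.87, 3.83 and 9.13 FPKM against 2.82, 4.58 and 1.93 (-0.81 ± 0.26, adjusted p = 0.062), and the groups overlapped. Its adjusted p was 0.042 with median-of-ratios scaling, 0.021 without ND 3 and 0.029 without HFD 15. Per2, read from its GENCODE transcripts and chosen after its values were seen, was at 1.36, 4.11 and 1.16 FPKM against 6.33, 5.31 and 6.01 (1.21, adjusted p = 0.029). Summed by gene name as in the main test, Per2 did not pass (0.64, adjusted p = 0.1), and its groups overlapped. ND 3 and HFD 15 were the pair of livers nearest to each other across the diets for both Arntl and Per2. The hour at which each liver was taken is not in the labels, and its part in these values was not tested.

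In amino acid metabolism, 4 of 38 usable urea cycle and amino acid genes (41 listed) were higher and 2 lower, 2 and 6 with median-of-ratios scaling and 0 and 0 with the clock score, against 9.99% and 2.11% of all genes. The higher numbered 2 without ND 2, ND 3, HFD 12 or HFD 15, and the lower 4 without ND 3. Glul, the glutamine synthetase of the cells around the central vein, was at 510, 595 and 394 FPKM against 990, 920 and 968 (0.96 ± 0.15, adjusted p = 0.002, 0.097 with the clock score). Got1, the cytosolic aspartate aminotransferase, was at 298, 247 and 348 FPKM against 135, 112 and 118 (-1.27 ± 0.21, adjusted p = 0.0022, 0.089 with the clock score). Prodh, which begins proline breakdown, rose from 32, 37.2 and 43.2 FPKM to 75.4, 71.2 and 91.2 (1.06 ± 0.18, adjusted p = 0.0027, 0.12 with the clock score). Of 28 usable citrate cycle and mitochondrial enzymes (32 listed), 1 was higher and 1 lower, and 1 and 0 with the clock score, the higher being Idh2, a mitochondrial isocitrate dehydrogenase, at 45.6, 39.8 and 44.1 FPKM against 95, 92.6 and 100 (1.14 ± 0.14, adjusted p = 0.00027). None of these 4 genes overlapped between the diets. Of the lists not yet described, methionine and one-carbon genes had 2 higher and 3 lower of 26 usable, iron and metallothionein genes 5 and 0 of 20 (1 and 0 with median-of-ratios scaling), heat shock genes 1 and 0 of 17 (1 and 2), hydroxysteroid dehydrogenases 4 and 1 of 16 (3 and 2), ketone synthesis 0 and 1 of 4, secreted hepatokines 9 and 2 of 33 (8 and 4), hepatocyte markers 2 and 1 of 27 (2 and 3), and the cell cycle 7 and 1 of 29 (4 and 3). With the clock score these counts were 0 and 0 for methionine, heat shock, ketone and hepatocyte genes, 1 and 0 for iron and cell cycle genes, 1 and 1 for hydroxysteroid dehydrogenases and 3 and 0 for hepatokines. On the 6 livers alone 12 cell cycle genes and 7 hydroxysteroid dehydrogenases were higher. The 29 cell cycle genes include 7 with an ND mean under the filter, and 2 to 4 of the 29 were higher when any 1 mouse was left out. The lower methionine genes numbered 6 without ND 3, 0 without ND 2, ND 4 or HFD 12 and 1 without HFD 18, and the higher iron genes 2 when any mouse other than ND 4 was left out.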
